A study of Mus musculus with 15 samples.

Results

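The genes that write, maintain and remove DNA methylation were followed by RNA-seq in mouse embryonic stem cells (ESC), a cultured model of the pluripotent embryo, after loss of Hmga1. They were 10 genes chosen by symbol: Dnmt1, Dnmt3a, Dnmt3b, Dnmt3l, Uhrf1, Tet1, Tet2, Tet3, Tdg and Prdm14. All 10 were found in both count tables, among 21662 genes in all. The KO experiment held 9 samples, namely 3 of WT (a, b and c), 2 of Hmga1 KO, 2 of the Hmga1 add-back and 2 of the Hmga2 add-back (a and b each). The full-deletion experiment held 6 further samples, 3 of its own WT and 3 of the Hmga1 full deletion. All lines derived from ESC of a mixed 129Sv-C57Bl/6 background that express the BirA biotin ligase. In KO cells, Cas9 cutting at an exon-intron junction shifted the reading frame of Hmga1. The add-backs carried biotin-tagged Hmga1 or Hmga2 cDNA under the ubiquitous CAG promoter, inserted into KO cells at 1 defined site, and thus shared the KO allele. For the full deletion, paired guides flanking the coding sequence removed it. Each genotype was a single line, so that line and genotype cannot be told apart.

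In mammals, Dnmt1 copies methylation of CG dinucleotides onto the new strand at replication, guided by Uhrf1, which binds hemimethylated DNA. Dnmt3a and Dnmt3b methylate DNA de novo, and Dnmt3l is their catalytically inactive cofactor, abundant in ESC. The Tet proteins oxidise 5-methylcytosine, and Tdg, a thymine DNA glycosylase, excises the further oxidised bases. Prdm14 is a pluripotency factor known to repress the de novo methyltransferases. ESC in serum and LIF, as used here, express both arms of this system, with Tet1 and Tet2 as their main Tet genes.

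Counts on genes summed to between 13465399 and 34952136 per sample. Levels are given as CPM, the counts scaled to libraries of equal size with edgeR's TMM factors within each experiment, and comparisons between genes as RPKM, CPM per 1000 bases of exon. The letters of the KO experiment are batches prepared and sequenced together. Hmga1 itself was at 221 to 464 CPM in WT and 96.1 to 217 in KO, ranges that do not overlap, and at 310.4 to 357 in WT against 10.9 to 12.3 in the full deletion. The Hmga1 add-back, at 184 and 123 CPM, overlapped KO, so the Hmga1 count did not tell them apart. By Western blot, the paper reports no Hmga1 protein in KO and levels comparable to WT in the Hmga1 add-back. According to the paper, KO cells still made a shorter Hmga1 transcript that lacks the targeted exon. Its reads are still counted, which limits the RNA count as a check of the KO. Hmga2 was at 222 and 249 CPM in its add-back and at most 23.8 in the other samples. WT b of the full-deletion experiment stood apart from WT a and c. Its TMM factor was 0.752, against 0.986 to 1.12 in the other samples of that experiment, and its chi-square per degree of freedom was 202 and 193 against WT a and WT c, which differed by 5.79. The tests of that experiment are therefore also given without it.

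Per length, the 10 genes spanned a wide range of levels, with the same bottom pair in all 6 groups. In WT of the KO experiment, Uhrf1 (131 ± 8.46 RPKM, SD, n = 3) and Dnmt3l (117 ± 27.8) were highest, and their ranges overlapped. Tet1 (71.1 ± 28.5), Dnmt1 (66.8 ± 2.72), Tet2 (56.7 ± 12.1) and Dnmt3b (54.5 ± 3.52) followed, each overlapping the next. Dnmt3a (28.5 ± 3.27) and Tdg (20.6 ± 1.81) were separate from their neighbours. Prdm14 (8.49 ± 0.630) and Tet3 (1.29 ± 0.468) were lowest. By mean, the other WT samples put Tet1 (144 ± 38.1 RPKM) and Tet2 (109 ± 32.2) first, with Uhrf1 (103 ± 12.9) after them. Dnmt1 (84.3 ± 13.99), Dnmt3l (78.3 ± 14.05), Dnmt3b (66.4 ± 5.88), Dnmt3a (36.6 ± 9.81) and Tdg (26.3 ± 1.99) followed, and again Prdm14 (6.52 ± 2.15) and Tet3 (0.726 ± 0.107) came last. From Tet1 down to Dnmt3b each overlapped the next. In WT a and c of that experiment Uhrf1 (101 and 117 RPKM) lay above Tet2 (89.2 and 92.5), while WT b had 91.1 and 147. In the full deletion the order was Uhrf1 (95.99 ± 0.198), Tet1 (90.0 ± 3.97), Dnmt3l (73.0 ± 0.370), Dnmt1 (65.2 ± 0.140), Tet2 (54.5 ± 1.34), Dnmt3b (41.4 ± 1.70), Dnmt3a (27.1 ± 1.19), Tdg (24.6 ± 0.780), Prdm14 (9.40 ± 0.0711) and Tet3 (0.987 ± 0.205), with no overlap between neighbours. Uhrf1 also led in KO (121 ± 5.34, n = 2), Hmga1 add-back cells (119 ± 7.80) and Hmga2 add-back cells (113 ± 5.72). Dnmt3a ranked above Tdg in both WT groups and below it in KO (18.8 against 19.0 RPKM), Hmga1 add-back cells (16.9 against 20.3) and Hmga2 add-back cells (13.6 against 20.3), with ranges that overlapped in the first 2 of these and not in the last. In KO, Dnmt3l (98.7), Tet1 (85.4), Tet2 (66.3), Dnmt1 (64.1) and Dnmt3b (46.4) lay between Uhrf1 and Tdg. In Hmga1 add-back cells the order there was Tet1 (84.5), Dnmt3l (63.1), Dnmt1 (60.7), Tet2 (59.8) and Dnmt3b (40.6), and with Hmga2 it was Tet1 (86.5), Tet2 (63.2), Dnmt1 (62.4), Dnmt3l (59.4) and Dnmt3b (32.4). The 2 experiments were normalized separately, so levels are not tested across them.

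**Figure D1:**
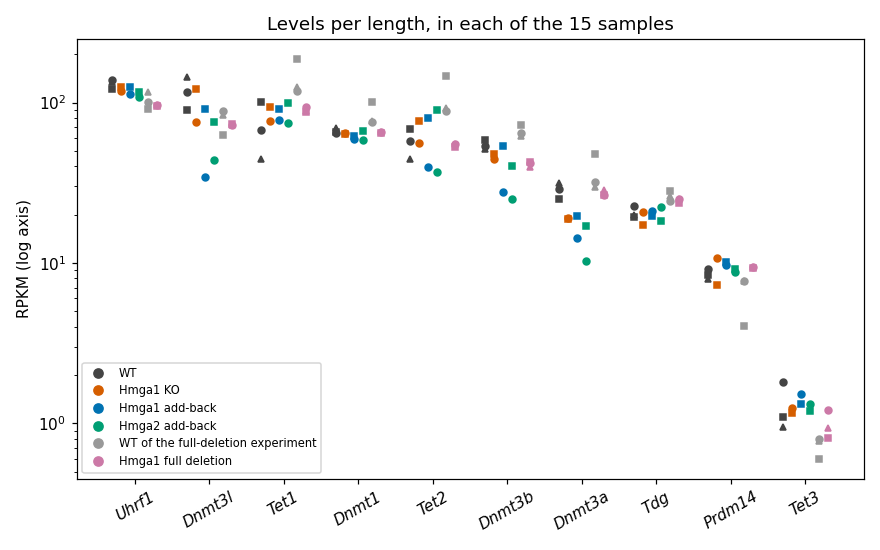
RPKM (log axis) of each of the 10 genes in each of the 15 samples; colours are groups and symbols the letters a (circle), b (square) and c (triangle). Tet3 lies between 0.603 and 1.82 RPKM and is the lowest gene in every sample, followed by Prdm14.

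Removal of the Hmga1 coding sequence was accompanied by lower Dnmt3b and Tet2. Dnmt3b fell by 0.68 on the log2 scale (SE 0.11, adjusted p = 0.0250) and Tet2 by 1.005 (SE 0.21, adjusted p = 0.0366), in the quasi-likelihood test of edgeR, adjusted by Benjamini-Hochberg across the tested genes. These 2 of the 10 genes passed an adjusted p of 0.05, against 8.25% of all 13098 genes tested (3.77% lower in the deletion). Neither reached the thresholds of the study, an adjusted p under 0.01 with at least a 2-fold change, which 0.0687% of genes did. At those thresholds edgeR and limma-trend called 0 of the 10, and 9 genes in all with each tool. DESeq2 called 1, Tet2, among 463 genes in all. In edgeR, 4 of the 10 had an unadjusted p under 0.05, as did 37% of all genes. The 3 deletion samples lay wholly outside the range of WT for 7 of the 10 genes, 5 lower and 2 higher, where 51.3% of all genes did so. The call rested on single samples: without WT b 8 of the 10 passed (42.5% of all genes then did), and without WT c or any 1 deletion sample 0 passed.

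Because these 2 genes carry the result, their promoters are shown, as windows of 300 bases around the RefSeq start, with each CG in capitals. The RefSeq table of GRCm38.p6 held promoters of 9 of the genes, 16 in all, and each sequence was placed on NCBIM37, the build of the counts, by a single exact match. Dnmt3b lies at chr2:153475186-153513466 (plus strand) and the window at chr2:153474935-153475234. Tet2 lies at chr3:133126643-133207354 (minus strand) and its window at chr3:133207305-133207604, read on the minus strand.
Dnmt3b: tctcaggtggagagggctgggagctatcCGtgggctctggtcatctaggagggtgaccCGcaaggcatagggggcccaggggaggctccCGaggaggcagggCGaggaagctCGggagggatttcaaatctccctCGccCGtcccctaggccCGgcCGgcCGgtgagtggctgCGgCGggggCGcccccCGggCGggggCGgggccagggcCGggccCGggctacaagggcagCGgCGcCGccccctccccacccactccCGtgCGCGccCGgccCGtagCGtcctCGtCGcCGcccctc
Tet2: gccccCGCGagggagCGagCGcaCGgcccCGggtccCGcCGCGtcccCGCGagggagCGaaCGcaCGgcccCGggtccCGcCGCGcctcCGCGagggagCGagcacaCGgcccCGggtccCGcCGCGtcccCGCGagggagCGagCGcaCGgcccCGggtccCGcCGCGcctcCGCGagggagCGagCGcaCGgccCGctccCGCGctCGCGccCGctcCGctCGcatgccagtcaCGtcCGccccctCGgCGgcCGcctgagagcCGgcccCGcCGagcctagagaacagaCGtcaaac
The Dnmt3b window holds 30 CG and 24% AT, and that of Tet2 57 CG and 18.7% AT, where the medians over 32851 promoters were 7 CG and 47.3% AT. Fewer CG than in the Tet2 window were found in 99.8% of promoters. The letters GGGCGG, searched on both strands, occurred 4 times for Dnmt3b and 1 time for Tet2, and 35.7% of all promoters hold them. CCAAT (37.4% of promoters) and TATAAA (13.6%) occurred in neither. Over the whole gene, Tet2 was 58.5% AT, more than 80.5% of the 11847 tested genes with a value, and Dnmt3b 52.5%, near the median of 53.7%. The other 8 genes ranged from 47.6% (Uhrf1) to 56.0% (Tet1).

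Among the de novo enzymes, Dnmt3b had 279.7, 315 and 266 CPM in WT a, b and c of this experiment and 182, 185 and 171 in the deletion samples a, b and c. All 3 deletion samples lay below the lowest WT sample, and the change was the least dependent on WT b of those that passed, being -0.61 without it (SE 0.05, adjusted p = 1.19e-07). Dnmt3a, the second catalytic enzyme, had 360.4, 539 and 337 CPM in WT and 297, 299 and 321 in the deletion. The groups do not overlap, yet WT b alone set most of the gap, and the log2 difference was -0.43 (SE 0.19, adjusted p = 0.140), or -0.19 without it (adjusted p = 0.00872). Dnmt3l, the cofactor, had 221, 154 and 206 CPM in WT and 180.4, 182 and 180.0 in the deletion. Here WT b lay below and the other WT samples above the deletion samples, and the difference was -0.10 (SE 0.14, adjusted p = 0.621), or -0.24 without WT b (adjusted p = 0.00138).

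Of the maintenance pair, Dnmt1 had 531, 704 and 538 CPM in WT and 458, 456 and 457 in the deletion. The groups do not overlap, with a log2 difference of -0.37 (SE 0.14, adjusted p = 0.107), or -0.23 without WT b (adjusted p = 0.000950). Uhrf1 had 370.4, 332 and 426 CPM in WT and 349.7 to 351 in the deletion, inside the range of WT. Its difference was -0.10 (SE 0.12, adjusted p = 0.555), or -0.18 without WT b (adjusted p = 0.0148).

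For the Tet genes, Tet2 had 964, 1584 and 1000.1 CPM in WT and 598, 573 and 597 in the deletion. Every deletion sample lay far below the lowest WT sample, and without WT b the difference was -0.74 (SE 0.05, adjusted p = 3.39e-09). Tet1 had 1696, 2693 and 1802 CPM in WT and 1358, 1249.8 and 1274 in the deletion. The groups do not overlap, but the difference of -0.67 (SE 0.20) had an adjusted p of 0.0678, and of -0.43 without WT b an adjusted p of 2.42e-06. Tet3, the least abundant, had 8.87, 6.68 and 8.58 CPM in WT and 13.4, 8.98 and 10.4 in the deletion, a difference of 0.43 (SE 0.19, adjusted p = 0.146). It lay the opposite way to Tet1 and Tet2, and did not pass without WT b either (0.31, adjusted p = 0.105).

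Tdg had 78.2, 91.0 and 84.6 CPM in WT and 81.0, 76.4 and 80.5 in the deletion, overlapping, with a difference of -0.09 (SE 0.10, adjusted p = 0.498), or -0.038 without WT b (adjusted p = 0.655). Prdm14 had 20.1, 10.5 and 20.1 CPM in WT and 24.3, 24.2 and 24.6 in the deletion. All deletion samples were above all WT samples, with a difference of 0.52 (SE 0.24, adjusted p = 0.150) that was 0.28 without WT b (adjusted p = 0.0149). The plot of changes in the full deletion shows these values with their errors.

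**Figure D2:**
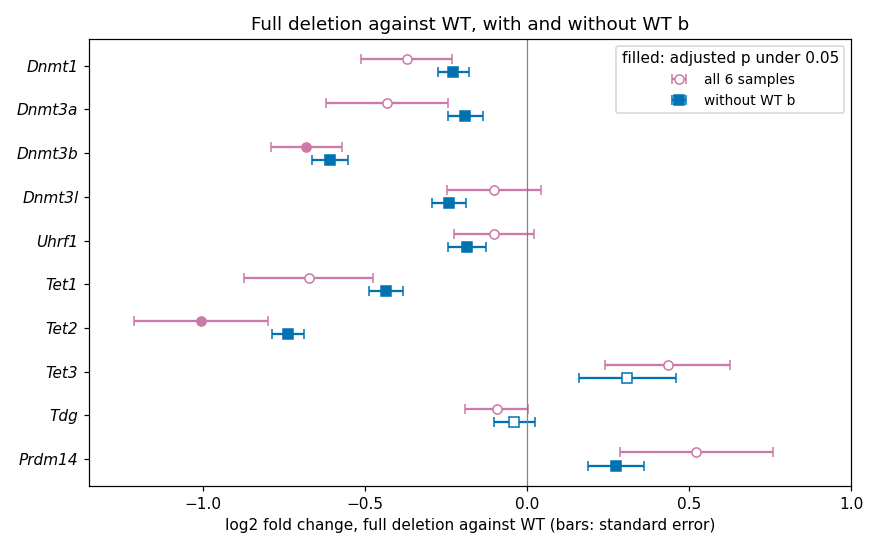
Log2 fold change (horizontal axis) of each gene in the full deletion against WT, with all 6 samples (circles) and without WT b (squares); bars are standard errors and filled symbols have an adjusted p under 0.05. Filled symbols number 2 with all samples and 8 without WT b, and no gene changes side.

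WT b differed from WT a and c in the members themselves. On the log2 scale it was 0.69 above their mean for Tet2, 0.63 for Dnmt3a, 0.62 for Tet1 and 0.40 for Dnmt1, and -0.94 for Prdm14, -0.47 for Dnmt3l, -0.38 for Tet3 and -0.26 for Uhrf1. Gene length moved with this difference over all genes, with a median of -0.25 in the shortest 2620 genes and 0.11 in the longest 2620. Tet1, Tet2, Tet3, Dnmt3a and Dnmt1 are among these longest genes, with 7006 to 14375 bases of exon, and of these only Tet3 was lower in WT b. The part of length in the result was not tested. Scaling by summed counts in place of TMM raised the median log2 change of all genes from 0.04 to 0.32, and turned Dnmt3l, Uhrf1 and Tdg positive.

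Relative to other members per length, Tet2 was at 1.18 to 1.46 times Dnmt1 in WT of this experiment and at 0.815 to 0.848 in the deletion. Dnmt3b was at 0.726 to 0.855 times Dnmt1 in WT and 0.606 to 0.657 in the deletion. Tet1 stood at 1.28 to 1.35 times Tet2 in WT and 1.60 to 1.71 in the deletion. None of these 3 ratios overlapped between the groups, WT b included, and a ratio within a sample does not depend on scaling. Dnmt3a to Dnmt1 overlapped, at 0.390 to 0.476 and 0.404 to 0.437. So did Dnmt3a to Dnmt3b (0.487 to 0.657 and 0.621 to 0.722) and Uhrf1 to Dnmt1 (0.907 to 1.52 and 1.47 to 1.48). Dnmt3l to Dnmt3a also overlapped, at 1.30 to 2.78 and 2.55 to 2.77. Tet1 to Dnmt1 did not, at 1.56 to 1.87 and 1.34 to 1.45. The share of ratios without overlap over all genes was not computed, and 51.3% of single genes had none.

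In the KO experiment Dnmt3a was the member furthest from WT in KO, and Dnmt3a, Dnmt3b and Dnmt3l were the furthest in both add-backs, though none passed the test. Against WT, 0 of the 10 genes passed an adjusted p of 0.05 in KO, where 0.0647% of the 13912 genes tested did. The same count was 0 in Hmga1 add-back cells (0.0431% of genes) and 0 in Hmga2 add-back cells (0.165%) by edgeR. Unadjusted p was under 0.05 for 1, 3 and 3 of the 10 genes in KO, Hmga1 add-back and Hmga2 add-back, in that order, where it was for 12.6%, 13.3% and 16.9% of all genes. DESeq2 passed 0, 1 (Dnmt3a) and 2 (Dnmt3a and Dnmt3b), with 1.43%, 1.44% and 2.36% of all genes, and limma-trend 0 in each, with 0.0647%, 0.108% and 0.173%. At the thresholds of the study 0 members were called in each by edgeR, where 0.0216%, 0.0144% and 0.0647% of genes were. DESeq2 called Dnmt3a in the Hmga2 add-back, and its share of all genes at those thresholds is not given here.

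Dnmt3a had 325 CPM in WT a, 283 in WT b and 356 in WT c, against 213 in KO a and 211 in KO b. It had 161 and 220.4 CPM in Hmga1 add-back cells and 115 and 190.1 in Hmga2 add-back cells. Each of the 6 KO and add-back samples lay below all WT samples, those with the tagged Hmga1 cDNA included. The log2 difference from WT was -0.53 in KO (SE 0.20, adjusted p = 0.363), -0.70 in Hmga1 add-back cells (SE 0.21, adjusted p = 0.244) and -1.03 in Hmga2 add-back cells (SE 0.21, adjusted p = 0.106). These comparisons share the WT samples.

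Dnmt3b had 230.2, 252 and 223 CPM in WT and 193 and 208 in KO, below all WT samples. Values of 120 and 231 CPM were seen in Hmga1 add-back cells, b within WT and a far below it, and 107 and 173 in Hmga2 add-back cells, both below WT. The differences from WT were -0.27 (SE 0.20, adjusted p = 0.610), -0.53 (SE 0.20, adjusted p = 0.340) and -0.83 (SE 0.20, adjusted p = 0.138) in KO, Hmga1 add-back and Hmga2 add-back, in that order. Dnmt3l, the cofactor, varied widely among replicates, with 287, 222 and 359 CPM in WT, 187 and 302 in KO, 85.6 and 227 in Hmga1 add-back cells and 108 and 186 in Hmga2 add-back cells. Only the Hmga2 add-back lay wholly below WT, and the differences were -0.17 (SE 0.33, adjusted p = 0.865), -0.90 (SE 0.34, adjusted p = 0.335) and -0.92 (SE 0.33, adjusted p = 0.240).

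**Figure D3:**
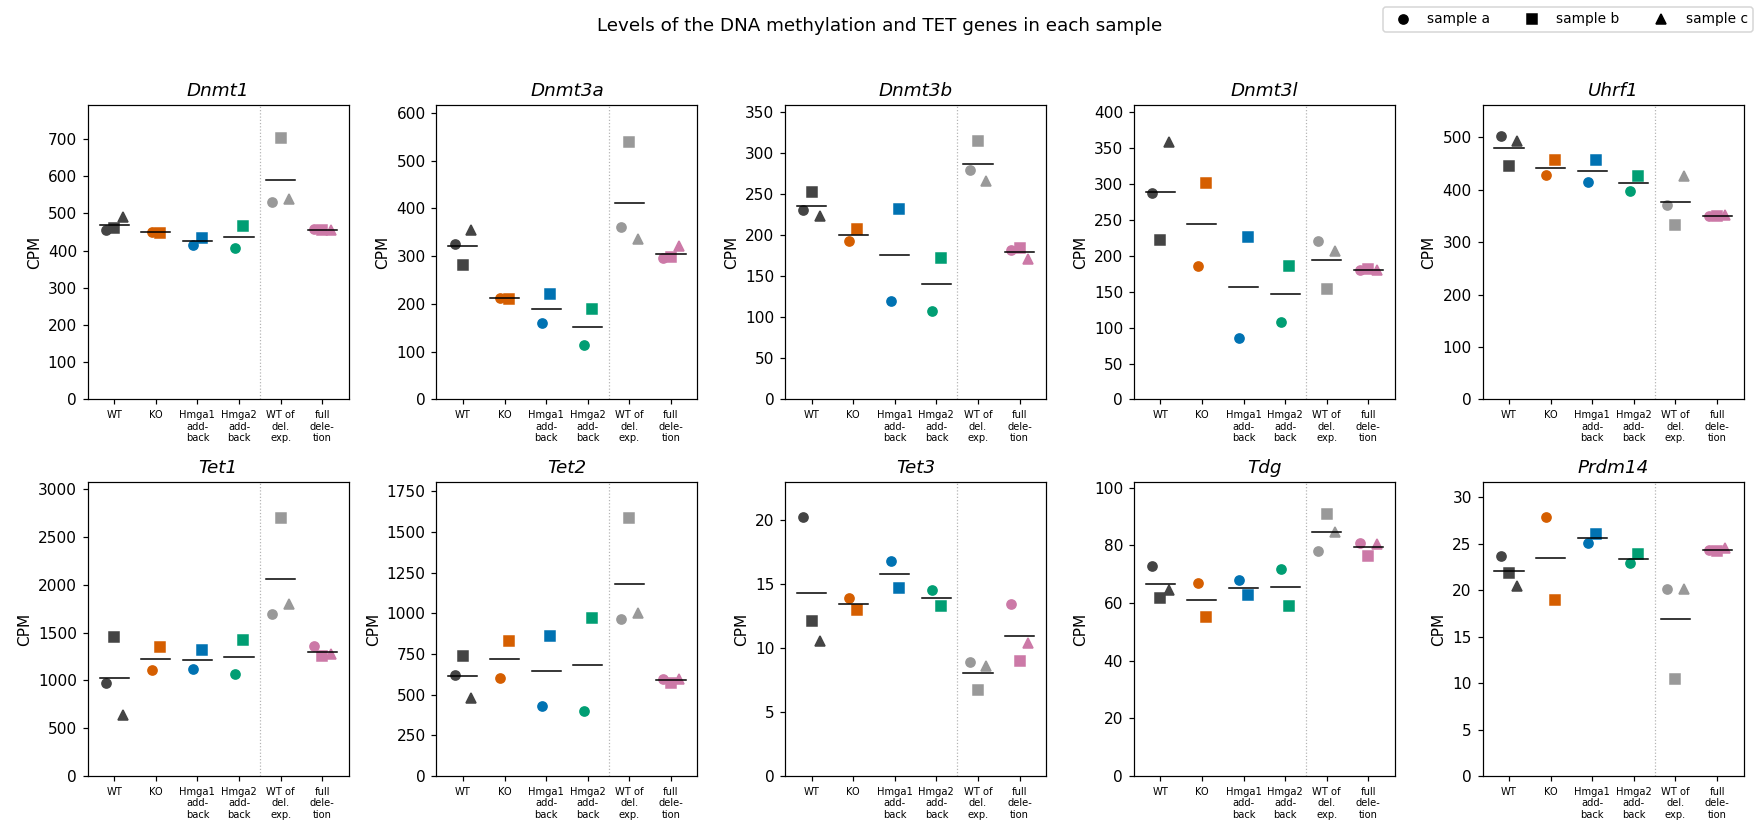
CPM of each gene in each of the 15 samples, with lines at group means; symbols are the letters of the samples, and the dotted line separates the 2 experiments, normalized separately. Dnmt3a is below the WT range in all 6 KO and add-back samples, and WT b of the full-deletion experiment is apart for Tet1 and Tet2.

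Within batches, the size of these differences varied. In batch a, Dnmt3a stood at 65.6% of the WT sample in KO, 49.4% in Hmga1 add-back cells and 35.4% in Hmga2 add-back cells. The same values in batch b were 74.5%, 77.99% and 67.3%, all below WT. Dnmt3b was also below WT in both batches of all 3 lines, between 46.7% and 91.6%. Dnmt3l was not, since KO b was at 136% and the Hmga1 add-back b at 102% of WT b, against 64.99% and 29.8% in batch a. No other sample was in the batch of WT c, which leaves a and b to carry the comparisons. Leaving out WT b therefore left WT a alone to set the WT level. Dnmt3a was then at -0.79 in KO, -0.98 in Hmga1 add-back cells and -1.32 in Hmga2 add-back cells. Over all alternatives run, Dnmt3a ranged from -0.79 to -0.20, -0.98 to -0.39 and -1.37 to -0.71, in that order. Dnmt3l ranged from -1.51 to -0.17 in Hmga1 add-back cells and from -1.50 to -0.15 in Hmga2 add-back cells. Dnmt3b ranged from -1.05 to -0.59 in Hmga2 add-back cells.

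**Figure D4:**
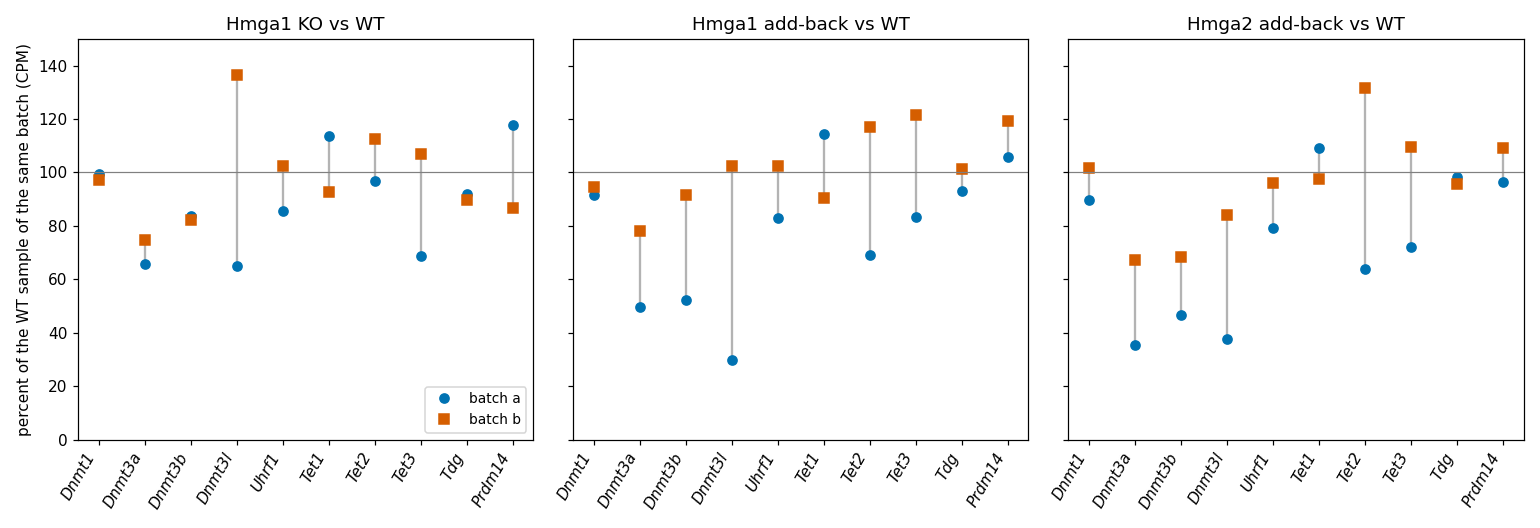
CPM in each KO and add-back sample as a percent of the WT sample of the same batch, for batch a (circles) and batch b (squares); the line at 100 is WT. Dnmt3a and Dnmt3b are below 100 in both batches in all 3 panels, while Dnmt3l, Uhrf1, Tet1, Tet2 and Tet3 lie on opposite sides of 100 in batches a and b in the first 2 panels.

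Dnmt1 had 454, 459.8 and 489.7 CPM in WT, 451 and 447 in KO, 416 and 435 in Hmga1 add-back cells and 407 and 467 in Hmga2 add-back cells. Its differences from WT were -0.02, -0.10 and -0.07 on the log2 scale (SE 0.11 each), with an adjusted p of at least 0.677. Uhrf1 had 501, 444 and 494 CPM in WT, 428 and 456 in KO, 415 and 456 in Hmga1 add-back cells and 397 and 427 in Hmga2 add-back cells. Its differences were -0.10, -0.12 and -0.20 (SE 0.12 each, adjusted p of at least 0.382), and the Hmga2 add-back lay below all WT samples.

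Tet1 and Tet2 were near WT in KO and both add-backs, and both differed between batches. Tet1 had 976, 1453 and 638 CPM in WT, 1107 and 1348 in KO, 1116 and 1312 in Hmga1 add-back cells and 1066 and 1419 in Hmga2 add-back cells. Batch b was above batch a in 4 of 4 groups, and the difference from WT was 0.03, 0.02 and 0.04 (SE 0.12 each). Tet2 had 622, 738 and 477 CPM in WT, 603 and 831 in KO, 431 and 863 in Hmga1 add-back cells and 397 and 970.2 in Hmga2 add-back cells. It, too, was higher in batch b in 4 of 4 groups, by 0.75 on average on the log2 scale, and its differences from WT were 0.05, -0.17 and -0.12 (SE 0.23 each). Relative to the WT sample of its batch, Tet2 in the Hmga2 add-back was at 63.8% in a and 132% in b.

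Tet3 had 20.2, 12.1 and 10.5 CPM in WT and between 12.9 and 16.8 in the KO and add-back samples, all within the range of WT. Tdg had 73.0, 61.8 and 64.5 CPM in WT and between 55.3 and 71.8 in the other samples. Prdm14 had 23.7, 21.9 and 20.5 CPM in WT, 27.9 and 18.9 in KO, 25.1 and 26.1 in Hmga1 add-back cells and 22.9 and 23.9 in Hmga2 add-back cells. The Hmga1 add-back lay above WT for Prdm14, with a difference of 0.17 (SE 0.18, adjusted p = 0.689). No overlap with WT was seen for 3 members in KO (Dnmt1, Dnmt3a and Dnmt3b), where 23.5% of all genes had none. The Hmga1 add-back had 3 such members (17.8% of genes) and the Hmga2 add-back 4 (26.8%).

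In neither add-back were the de novo enzymes above KO on average. The batches of the Hmga1 add-back went opposite ways, with Dnmt3a at 75.3% of KO in a and 105% in b, and Dnmt3b at 62.2% and 111%. With Hmga2 both genes were below KO in both batches. Against KO, 0 members passed an adjusted p of 0.05 by edgeR in Hmga1 add-back cells, where 0% of genes did, and 0 in Hmga2 add-back cells (0.0144% of genes). Unadjusted p was under 0.05 for 0 and 2 members, with 2.8% and 5.09% of all genes, and DESeq2 and limma-trend passed 0 in both. The thresholds of the study were met by 0 members in both, and by 0% and 0.00719% of genes. Dnmt3a differed from KO by -0.18 (SE 0.21) in Hmga1 add-back cells and by -0.51 (SE 0.21, adjusted p = 0.877) in Hmga2 add-back cells. The same differences were -0.26 (SE 0.20) and -0.57 (SE 0.20, adjusted p = 0.877) for Dnmt3b, and -0.72 (SE 0.33) and -0.74 (SE 0.33, adjusted p = 0.877) for Dnmt3l. In the Hmga2 add-back all 3 lay below both KO samples, as did Uhrf1, 4 of the 10 members where 20.4% of genes had no overlap. For Dnmt3l and Uhrf1 this was a near tie, with add-back b at 186.5 and 426.8 CPM against 186.6 and 428.2 in KO a. In the Hmga1 add-back Dnmt1 and Tet3 had none (14.8% of genes). Tet1 differed from KO by -0.012 and 0.0099 (SE 0.12 each).

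Whether the changes in the KO and the full deletion differed was tested as an interaction over all 15 samples, as the change in KO minus that in the full deletion. Each change is against the WT of its own experiment, so line and experiment cannot be told apart here. For Tet2 the means were 717 CPM in KO and 589 in the full deletion, against 612 and 1183 in their WT, normalized separately. The interaction passed for 0 of the 10 members by edgeR (0.307% of 13671 genes), with 3 at an unadjusted p under 0.05, as were 18.4% of all genes, and 0 by DESeq2 (2.41% of genes) and by limma-trend (0.293%). The difference was 1.07 for Tet2 (SE 0.36, adjusted p = 0.223), 0.72 for Tet1 (SE 0.28, adjusted p = 0.240), -0.68 for Tet3 (SE 0.29, adjusted p = 0.256) and 0.43 for Dnmt3b (SE 0.25, adjusted p = 0.356). Without WT b of the full-deletion experiment, Tet1 passed (0.51, SE 0.12, adjusted p = 0.0356), where 4.87% of genes then did.

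Genes that act with the members were counted by edgeR in the full deletion. Over all genes tested there, 8.25% passed an adjusted p of 0.05, and 42.5% did without WT b. Of the 12 partners of the DNA methyltransferases, 1 was higher and 4 lower in the full deletion (median log2 change -0.43, against 0.04 for all genes), and without WT b 1 was higher and 9 lower. Dppa3, which limits Uhrf1, rose by 0.96 (SE 0.17, adjusted p = 0.0293), from 4.11 to 5.54 CPM in WT to 8.16 to 9.95. Hells, a chromatin remodeler needed for normal methylation, fell by 0.61 (SE 0.12, adjusted p = 0.0341), and Morc1, which silences transposons in germ cells, by 0.42 (SE 0.09, adjusted p = 0.0400). Zfp281, the 1 of 5 tested Tet partners that passed, fell by 0.48 (SE 0.10, adjusted p = 0.0388), and without WT b all 5 passed, each lower. Eed, a Polycomb subunit among the 11 partners and targets of Prdm14, fell by 0.997 (SE 0.24, adjusted p = 0.0474) and was the 1 gene of that list to pass, where without WT b 4 were higher and 3 lower. Eed missed an adjusted p of 0.05 by limma-trend. Without WT b, these 5 named genes passed with the same sign, at 0.88 for Dppa3, -0.54 for Hells, -0.45 for Morc1, -0.44 for Zfp281 and -0.66 for Eed.

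Of the 14 genes of base excision repair and deamination, 2 were higher and 0 lower in the full deletion, and without WT b 4 were higher and 1 lower. Here too the shares over all genes were 8.25%, and 42.5% without WT b. Neil2, a DNA glycosylase, rose by 1.60 (SE 0.24, adjusted p = 0.0216) from 2.02 to 3.66 CPM to 8.25 to 10.8, and Gadd45b, a stress gene linked to demethylation, by 1.04 (SE 0.16, adjusted p = 0.0222). By edgeR, 0 of the 9 genes listed as methyl-CpG readers and 0 of the 8 genes of methyl donor and cofactor supply passed. An unadjusted p under 0.05 was seen for 2 and 3 of them, and for 37% of all genes. DESeq2 passed 2 and 2 (24.7% of all genes) and limma-trend 0 and 0 (7.76%). The largest change in the reader list was -0.67 for Mbd3 (SE 0.20, adjusted p = 0.0668, and -0.40 without WT b, adjusted p = 3.1e-05). Whether each gene of that list binds methylated CG was not tested. Without WT b, 2 genes of the reader list and 4 supply genes passed, where 42.5% of all genes did. Germline genes silenced by promoter methylation went both ways, with 1 of 10 tested higher and 3 lower, or 4 and 3 without WT b. Mael, of the piRNA pathway, rose by 1.05 (SE 0.17, adjusted p = 0.0248), while Sycp1, of the synaptonemal complex, fell by 1.52 (SE 0.27, adjusted p = 0.0293) and Ddx4, a germ cell helicase, by 0.93 (SE 0.21, adjusted p = 0.0413). Without WT b, these 5 genes also passed with the same sign, at 1.38 for Neil2, 0.99 for Gadd45b, 0.93 for Mael, -1.19 for Sycp1 and -0.66 for Ddx4. Without WT c or any 1 deletion sample, none of these 10 genes passed, nor did Morc1 without WT a, and all kept their sign. In the KO experiment the smallest adjusted p in any of these lists was 0.115 in KO against WT (Hormad1, a meiotic gene), by edgeR, and 0.219 and 0.126 in the Hmga1 and Hmga2 add-backs. Of the germline genes 5 of 10 had an unadjusted p under 0.05 in KO (median 0.64), where 12.6% of all genes did. DESeq2 passed 2 of the germline genes, both higher, and 1.43% of all genes. The median of the members was -0.24 in the full deletion, -0.12 in KO, -0.11 in Hmga1 add-back cells and -0.16 in Hmga2 add-back cells, where that of all genes was between -0.01 and 0.04.

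Pluripotency markers, at 3747 to 6734 CPM summed over 10 genes, were present in all samples. In the full deletion they summed to 3747 to 3843 CPM, below the 4300 to 6734 of WT, and Fgf4, a growth factor gene, was the 1 of 10 that fell (by 0.70, SE 0.12, adjusted p = 0.0279, and at -0.68 without WT b). Without WT b 5 of the 10 were lower and 2 higher, and by DESeq2 with all samples 3 were lower. Over all genes, 8.25% passed in edgeR, 24.7% in DESeq2 and 42.5% without WT b, and 37% had an unadjusted p under 0.05. The part of these markers in the lower Dnmt3b and Tet2 was not tested. Of 10 markers of feeder fibroblasts, on which ESC can be grown, 4 could be tested and 0 passed by edgeR (2 at an unadjusted p under 0.05, 2 by DESeq2, both higher, and 0 by limma-trend), and without WT b 2 of 3 tested passed, both higher. Their sum was 497 to 633 CPM in WT and 764 to 1025 in the full deletion, nearly all of it Fn1, which other cells express too, and in the KO experiment 384 to 679 CPM in WT and 538 to 988 in the KO and add-back samples. Col3a1, Postn and Dcn were at 0 in all 6 samples of this experiment and Col1a1 did not exceed 0.902 CPM. Of 10 differentiation markers, 5 were tested in the full deletion and 0 passed by edgeR, DESeq2 or limma-trend, with 1 at an unadjusted p under 0.05, and 1 passed without WT b, higher. They summed to 46.9 to 82.6 CPM in WT of the KO experiment against 21.1 to 32.2 in the KO and add-back samples, where Dnmt3a was also lower, and their part in that difference was not tested. In bulk samples, fewer cells of a kind and less RNA per cell cannot be told apart.

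The 2 members whose group means ranged most, Tet2 (1.20 on the log2 scale) and Dnmt3a (1.11), were compared with all other genes over the 15 samples, each centred on WT of its experiment. Tsix, Rbbp6 and Trim44 lay closest to Tet2, with a mean absolute difference of 0.16, 0.17 and 0.19, where the median gene of 13050 was at 0.56. Closest to Dnmt3a were Tada1 (0.11), Ext1 (0.15) and Pon2 (0.15), where the median gene was at 0.55. These are descriptions over samples that share batches.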

How the data were processed

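RNA-seq was performed on 15 samples, 9 of the KO experiment and 6 of the full-deletion experiment, from RNA depleted of ribosomal RNA and made into stranded libraries. According to the methods, the authors removed the first bases of reads, used bowtie through QuasR on mm9, placed multi-mapping reads at 1 randomly chosen site, and deposited raw counts per UCSC gene on the same strand. No column was left without a sample. Cultures were harvested on different days, at least 2 per line. p-values measure the spread between samples of single lines.

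Genes averaging 10 counts or more entered the test of each experiment, with edgeR 4.0.16 (TMM, quasi-likelihood test, R 4.3.3) and Benjamini-Hochberg adjustment over all genes. The batch letter was a term in the KO experiment, where deviations of same-letter samples correlated at 0.319 to 0.758. The interaction used a joint fit. "Rose" and "fell" mean an adjusted p under 0.05, and "called" the study's thresholds. Members and gene lists were chosen with earlier results of these data known. All members were described. From each other list the 3 genes with the smallest adjusted p under 0.05 were named, or, where none passed, that of largest change in the full deletion. The result of 1 gene that this rule names is not reported here. Scripts were tested on simulated data. Alternatives were DESeq2 1.42.0, limma-trend (limma 3.58.1, prior count 2), other scaling, other filters (none, or a mean of at least 50), the batch term, only the groups compared, and leaving out each sample. Figures used matplotlib 3.10.9 in python 3.11.15. Totals were 13465399 to 34952136 counts per sample. Replicate pairs varied by more than counting error over all genes (chi-square over degrees of freedom, 4.15 to 202). Reads of Hmga1 can be shared with related copies.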

Additional observations from a re-analysis of the deposited data

Results flagged for a closer look

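Hormad1, a meiotic gene of the list of methylated germline genes, differed by 1.98 on the log2 scale in its change from WT (change in KO minus change in the full deletion, SE 0.33, adjusted p = 0.0315, interaction in edgeR). It was at 8.79 to 14.7 CPM in WT and 23.5 to 23.9 in KO (1.09, SE 0.21, adjusted p = 0.115), and at 37.6 to 62.5 CPM in WT and 22.4 to 29.9 in the full deletion (-0.87, SE 0.20, adjusted p = 0.0445, and -0.65 without WT b of that experiment). The adjusted p of the interaction ranged from 1.59e-05 to 0.325 over the alternatives, from DESeq2 to leaving out KO a. It stayed under 0.05 without WT c, KO b, or WT a or b of the full-deletion experiment, and not without any other single sample or without the batch term. The WT ranges of the experiments, normalized separately, did not overlap, while those of KO and the full deletion did. Line and experiment cannot be told apart in this difference. The cause was not tested.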

How the results depend on the processing

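With all 6 samples of the full-deletion experiment, Dnmt3b and Tet2 kept their direction under every alternative run, but not their call. Of the 10 members, 1 passed an adjusted p of 0.05 with scaling by summed counts (Tet2, with 5.07% of all genes) and 1 with a replicate block (Dnmt3b, 3.02%), 2 with limma-trend (7.76%) and 3 with DESeq2 (24.7%). Leaving out each sample in turn gave 0 to 8, with 8 only without WT b. The letters of that experiment share only a number, with deviations that correlated at 0.0639, 0.0703 and -0.055. At the study's thresholds DESeq2 called 1 member there, among 463 genes in all. In the Hmga1 add-back against WT the count was 1 with DESeq2 and 0 to 2 over the samples left out, and in the Hmga2 add-back 2 with DESeq2, 1 with no filter on low counts, 3 with only the groups compared and 0 to 3 over the samples left out. At the study's thresholds the Hmga2 add-back had 1 with DESeq2, 1 with only the groups compared and 0 to 1 over the samples left out. The interaction had 0 to 1. With summed counts, Hells, Morc1, Zfp281, Ddx4 and Fgf4 no longer passed in the full deletion. Shares over all genes are not given here for every filter, for only the groups compared or for every sample left out. The cause was not tested in any of these.

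Members near 0 changed sign. Without a replicate block in the KO experiment, Tet2 was at 0.078 and Tet3 at 0.14 in the Hmga1 add-back and Tet2 at 0.16 in the Hmga2 add-back. With summed counts, Dnmt3l was at 0.16, Uhrf1 at 0.17 and Tdg at 0.20 in the full deletion. With the same scaling Tet3 was at 0.011 in the Hmga1 add-back and Tdg at 0.011 in the Hmga2 add-back against WT, and against KO Uhrf1 was at 0.0025, Tet1 at 0.016, Dnmt1 at 0.0035 and Prdm14 at 0.047. By limma-trend Tet3 was at 0.0064 in the Hmga1 add-back against WT and Prdm14 at 0.024 in the Hmga2 add-back against KO, the latter 0.0071 with a mean count of at least 50 and 0.0043 with only the groups compared.

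Leaving out each sample in turn turned these log2 differences, given from lowest to highest. In KO against WT they were -0.072 to 0.027 for Dnmt1, -0.75 to 0.59 for Dnmt3l, -0.24 to 0.053 for Uhrf1, -0.088 to 0.17 for Tet1, -0.26 to 0.43 for Tet2, -0.52 to 0.080 for Tet3 and -0.26 to 0.29 for Prdm14. In the Hmga1 add-back against WT they were -0.26 to 0.024 for Uhrf1, -0.11 to 0.16 for Tet1, -0.49 to 0.18 for Tet2, -0.29 to 0.31 for Tet3 and -0.12 to 0.021 for Tdg, and in the Hmga2 add-back -0.16 to 0.034 for Dnmt1, -0.071 to 0.18 for Tet1, -0.50 to 0.23 for Tet2, -0.47 to 0.14 for Tet3 and -0.095 to 0.18 for Prdm14. Against KO the Hmga1 add-back ranged over -0.59 to 0.037 for Dnmt3b, -0.086 to 0.028 for Uhrf1, -0.12 to 0.080 for Tet1 and -0.13 to 0.42 for Prdm14, and the Hmga2 add-back over -0.13 to 0.058 for Dnmt1, -0.051 to 0.071 for Tet1, -0.55 to 0.18 for Tet2, -0.077 to 0.17 for Tet3 and -0.26 to 0.30 for Prdm14. Dnmt3a was below WT in all comparisons with WT and under every alternative run.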

Other observations

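In the full deletion the SD between the 3 samples in CPM of Dnmt1, Uhrf1, Dnmt3l and Prdm14 was 0.215%, 0.207%, 0.507% and 0.756% of the mean, below the 1.04%, 1.19%, 1.66% and 4.52% that counting error alone gives. Among all genes, 32.3% varied by less than counting error in that group. The median SD over all genes was 6.59% of the mean in the full deletion and 18.7% in its WT.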
